A study of Mus musculus with 24 samples.

Results

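The response of neonatal blood to prenatal nPM (nano-sized particulate matter from traffic-derived ambient air) was described in XY pups alone. The comparison held the 3 blood libraries of XY pups whose dams breathed nPM (V5, V7 and V21) and the 3 of XY pups whose dams breathed filtered air (V6, V8 and V22), out of 12 blood libraries and 24 libraries in the series. The other libraries came from XX blood and from the cerebral cortex of the same study. Dams of the nPM group were exposed 3 days a week, each time for 5 h, from gestational day 2 until birth. The labels give a concentration of 300 mg/m3, the strain C57BL/6J and an age of 3 to 5 days, while the study's methods give the concentration in μg/m3, the strain C57BL/6NJ and blood taken on the fifth day. Per the methods, the 3 pups of each sex and exposure came from different litters, and dams of both groups sat in identical chambers. The labels name no litters, so that XY and XX pups of the same litter cannot be told apart here. Of 48709 annotated genes, 20822 had a count in at least 1 of the 6 libraries, and the 5789 with at least 10 counts in all 6 were tested. Of these, 5515 were protein-coding.

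Whole blood of a newborn mouse is dominated by red cells and reticulocytes, which carry globin transcripts and the remnants of the erythroid program. White cells and platelets add smaller amounts of RNA. Interferons are antiviral and immune cytokines that act through STAT and IRF factors on short promoter elements, and blood leukocytes are among the cells that respond to them. Inhaled particles are studied mostly for oxidative stress, DNA damage and inflammation, and these programs were therefore described here as lists of genes. In bulk blood, fewer cells of a type and less RNA per cell cannot be told apart.

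The 6 libraries held 13595647 to 20237741 counts on genes. Globin genes took 71.0 to 76.8% of them, which left 3616231 counts outside globins in V8, 4292085 in V6 and 4561489 to 5807914 in the others. Intervals from counting are narrow at this depth (95% Wilson interval of the globin share in V6, 76.821 to 76.859%) and cover counting error only. More genes passed 10 counts in all 3 nPM libraries but not in all 3 controls (1289) than the reverse (162), and the 2 libraries with the fewest counts outside globins were both controls. As CPM (counts per 1000000 gene counts), Ddx3y, a Y-linked gene, was between 4.46 and 6.15 in the 6 libraries, and Xist, the RNA of the inactive X, was between 0 and 0.971, against 27.8 to 60.7 in the XX blood libraries used here. Levels of single genes below are TMM-normalized CPM. The erythroid genes Alas2 and Epb41 were abundant, as given below, and Alb and Apoa1, which mark liver, were at 0 counts in all 6 libraries.

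Some libraries stood apart in ways that touch the results. V6, a control, had an RNA integrity number (RIN) of 9.3, while the other 5 lay between 8.3 and 8.7. Because RIN was a term of the fit, V6 had a leverage of 0.845 on it, against 0.333 to 0.527 for the others. Its TMM factor was 0.780, against 0.965 to 1.10 for the others, so that scaling raised its CPM relative to theirs. In the XX blood libraries used here, RIN was 9, 7.6 and 7.6 after nPM (V1, V3 and V18) and 8.2 and 7.5 in controls (V4 and V17). XX fold changes below also come from a fit with RIN. That fit was not repeated without RIN or with a library left out. V22, a control, was high in interferon-stimulated genes, as described below. V5, an nPM library, held transcripts of neurons and glia: a list of 48 cortex genes summed to 206 CPM of all counts there. The sum was 21.4 CPM in V6, 22.3 CPM in V8 and 27.2 CPM in V7. It was 57.1 CPM in V21 and 66.3 CPM in V22, the 2 libraries on sequencing lane 3, which also carried cortex libraries. Slc17a7, the main vesicular glutamate transporter of cortical neurons, was at 0 counts in V5, where Snap25 had 81 and Syt1 had 91. Skeletal muscle transcripts were highest in V7 and V6: a list of 28 muscle genes summed to 46.0 CPM of all counts in V7 and 23.1 CPM in V6, against 10.7 to 14.6 CPM in the other 4. Ttn (titin) had 277 counts in V7 and 168 in V6, against 3 to 38 in the others. The part of these transcripts, of RIN and of lane in each result was not tested beyond the fits given beside it.

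In the fit of exposure and RIN, 17 genes passed the study's cutoff of an unadjusted p of 0.005, which is 0.294% of the genes tested. Of these, 9 were higher after nPM (0.155% of all genes tested) and 8 were lower (0.138%). None passed an adjusted p of 0.05 (0% of 5789 genes, edgeR's quasi-likelihood test with Benjamini-Hochberg adjustment). At an unadjusted p of 0.05 there were 207 genes, 3.58% of those tested. The smallest adjusted p was 0.108, for Igf2, and every other gene was at 0.997 or above. Without the RIN term, 28 genes passed the unadjusted cutoff and 323 had a p under 0.05, again with none at the adjusted cutoff. Of the 17, 7 were called in both fits. Igf2 was the only one of the 17 called in all 6 fits that left out 1 library. The groups did not overlap in 8 of the 17 called genes. Over all genes tested, every nPM library lay above every control in 5.56% and below every control in 4.96%. An exact permutation test of 3 against 3 libraries cannot give a two-sided p below 0.1.

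**Figure D1:**
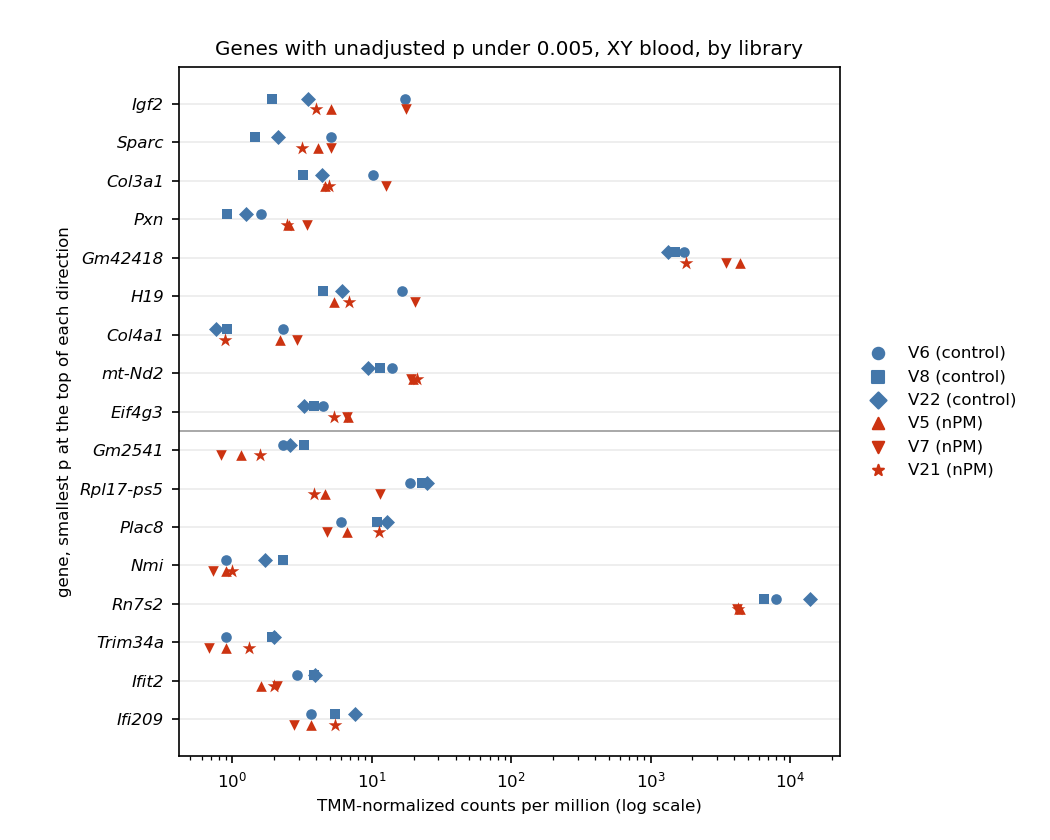
TMM-normalized CPM (log scale) of the 17 genes with an unadjusted p under 0.005 in XY blood, with 1 point per library (blue, 3 controls; red, 3 nPM). The 9 genes above the line were called higher after nPM and the 8 below it lower. In Igf2, H19 and Col3a1 the control V6 sits beside the nPM library V7, far above the other controls, while in Pxn, mt-Nd2 and Rpl17-ps5 the groups are separate.

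The genes called higher that are known from connective tissue and fetal growth were Igf2, H19, Sparc, Col3a1 and Col4a1. Igf2, a fetal growth factor expressed from the paternal allele (chr7:142650766-142666816, minus strand, GRCm38), was at 17.3, 1.91 and 3.46 CPM in controls V6, V8 and V22, and at 5.09, 17.6 and 3.97 CPM in nPM libraries V5, V7 and V21. One library of each group was therefore high and the groups overlapped almost wholly. The fit with RIN gave a log2 fold change of 2.25 (SE 0.318), and the fit without RIN gave 0.24 (SE 0.594). H19, the maternally expressed long noncoding RNA next to Igf2, had the same 2 high libraries, with 16.4 CPM in V6 and 20.4 CPM in V7 against 4.43 to 6.89 CPM in the other 4. Its log2 fold change was 1.45 (SE 0.361) with RIN and 0.29 (SE 0.450) without. H19 and Igf2 lie close together on chromosome 7, and each overlaps microRNA loci (Mir675 and Mir483) whose reads cannot be told from it.

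Col3a1, a fibrillar collagen of skin and vessel walls, was at 10.3, 3.21 and 4.36 CPM in the controls and 4.64, 12.6 and 4.96 CPM in the nPM libraries, in the order above. Its log2 fold change of 1.33 (SE 0.310) became 0.32 (SE 0.394) without RIN. Sparc, a collagen-binding matrix protein that platelets also store, was at 5.07, 1.45 and 2.11 CPM in controls and 4.14, 5.13 and 3.13 CPM after nPM. Only V6 among the controls reached the nPM range, and the log2 fold change was 1.48 (SE 0.292) with RIN and 0.53 (SE 0.358) without. Col4a1, a basement membrane collagen, was at 2.29, 0.917 and 0.765 CPM in controls and 2.20, 2.904 and 0.887 CPM after nPM. It overlaps its neighbour Col4a2 in the annotation. Col1a1 and Col1a2, the chains of type I collagen, did not pass the cutoff, with log2 fold changes of 0.73 and 0.86 with RIN. Without RIN both had the other sign, -0.33 and -0.28.

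In each group the library with the highest RIN, V6 or V7, had the highest level of Igf2, H19, Sparc, Col3a1 and Col4a1. These 2 libraries were also those with the most muscle transcripts. Within each group of 3 libraries the level of Igf2 was in the order of RIN, as the plot of level against RIN shows. H19 and Col3a1 were out of that order in the nPM libraries, and Col4a1 in the controls. V22 and V7 had the same RIN of 8.7, with Igf2 at 3.46 and 17.6 CPM. Leaving V6 out did not change the fitted values much: Igf2 was then at 2.30 (adjusted p = 0.0157, edgeR) and Col3a1 at 1.38. Leaving out V7 brought Col3a1 to 0.85, H19 to 0.79 and Igf2 to 1.75, and the first 2 were then no longer called. Without V8, Sparc, Col3a1 and H19 were not called, and without V22 or V7 Col4a1 was not. A list of 58 genes of hepatic fibrosis and GP6 signalling, the platelet collagen receptor pathway, was also described. Of its 20 tested members, 13 were higher and 7 lower, and the median log2 fold change was 0.10, against 0.02 over all genes tested. Without RIN 11 were higher and 9 lower (median 0.11). Its 2 called members were Col3a1 and Col4a1, where 0.155% of all genes tested were called higher. Neither was called without RIN. Fn1 (fibronectin) was the only tested gene of the skin and connective tissue list. It was higher in all nPM libraries (11.2, 9.28 and 15.7 CPM) than in any control (7.15, 7.72 and 5.35 CPM) and did not pass the cutoff (log2 fold change 0.71, SE 0.300).

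**Figure D2:**
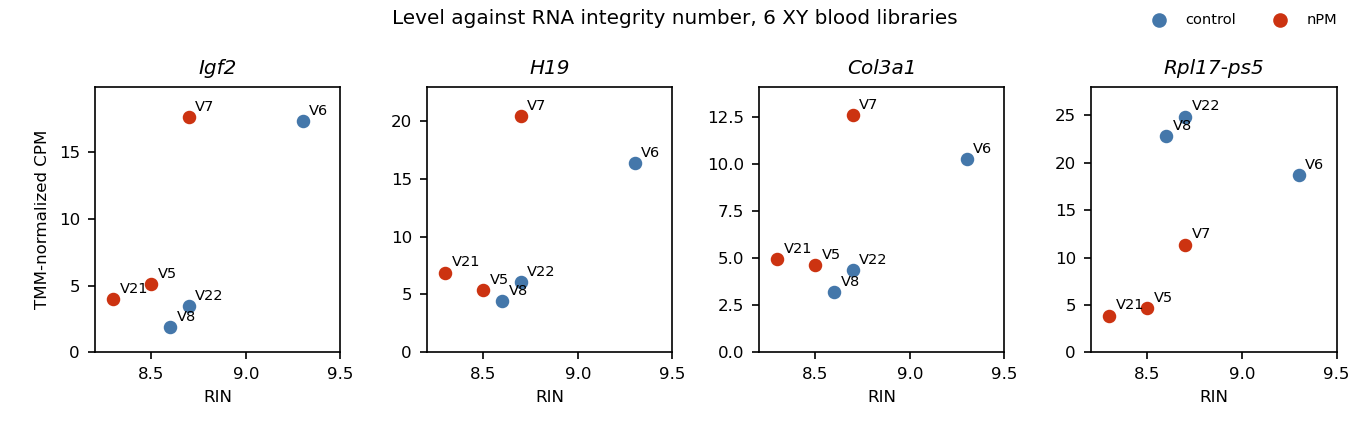
TMM-normalized CPM of Igf2, H19, Col3a1 and Rpl17-ps5 (vertical axes, each from 0) against the RIN of each of the 6 XY blood libraries (blue, control; red, nPM). In the first 3 panels V6 at RIN 9.3 and V7 at RIN 8.7 are the high points. In the Rpl17-ps5 panel the 3 controls lie above the 3 nPM libraries at every RIN.

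Pxn, Gm42418, mt-Nd2 and Eif4g3 were called higher with separate groups. Pxn, the focal adhesion adaptor paxillin (chr5:115506676-115555987), was at 1.60, 0.917 and 1.26 CPM in the controls and 2.54, 3.42 and 2.45 CPM in the nPM libraries. The log2 fold change was 1.51 (SE 0.353) and 1.15 (SE 0.315) without RIN. Eif4g3, a scaffold of translation initiation, was at 3.85 ± 0.579 CPM in controls and 6.27 ± 0.817 CPM after nPM (SD, n = 3 each). It had a log2 fold change of 0.91 (SE 0.254). It was 0.71 and not called without RIN, and with a single library removed it kept its call in 1 fit of 6. Gm42418 is a locus on chromosome 17 known to hold ribosomal RNA sequence, in libraries that were depleted of ribosomal RNA. It was at 1744, 1491 and 1337 CPM in the controls and 4351, 3494 and 1809 CPM after nPM. V21 was close to the controls and V5, the library with cortex transcripts, was highest; without V5 the log2 fold change went from 1.35 to 1.07 and the call was lost, as it was without V22. Another rRNA gene overlaps this locus on the other strand. That gene, ENSMUSG00000106106, was at 304 to 535 CPM in controls and 253 to 300 CPM after nPM, below all controls. Among the next genes by p, H1f0, the replacement linker histone, and Fkbp4, a co-chaperone of steroid receptors, had log2 fold changes of 1.24 and 1.29 and missed the cutoff.

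Transcripts of the mitochondrial genome differed unequally. mt-Nd2, a subunit of complex I, was at 13.9, 11.5 and 9.40 CPM in the controls and 19.9, 19.2 and 21.03 CPM after nPM. The fit gave a log2 fold change of 0.94 (SE 0.240; 0.79 without RIN). mt-Nd1 had values of 56.5, 42.4 and 32.7 CPM in controls and 70.0, 62.7 and 68.6 CPM after nPM, with a log2 fold change of 0.86 that missed the cutoff. mt-Nd5, mt-Nd4 and mt-Cytb (complex III) also had every nPM library above every control. In contrast, the more abundant transcripts of cytochrome c oxidase and ATP synthase overlapped. mt-Co1 was at 2276 ± 444 CPM in controls and 2155 ± 154 CPM after nPM (SD, n = 3 each), and mt-Co2, mt-Co3, mt-Atp6 and mt-Atp8 had log2 fold changes between -0.01 and 0.10. Of the 13 genes 12 were higher and 1 lower (median 0.57), but without RIN 8 were higher and 5 lower (median 0.21). In 5 every nPM library was above every control, 38.5% of the list against 5.56% of all genes tested. V22 was the lowest control in all 13. Without V22 8 were higher and 5 lower, the median was 0.36 and mt-Nd2 was not called. The 68 nuclear genes of oxidative phosphorylation had a median of -0.04. Among them Ndufv3, an accessory subunit of complex I, was at 0.694 to 0.765 CPM in controls and 1.45 to 2.09 CPM after nPM (log2 fold change 1.04, not called).

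Among the genes called lower, 3 were pseudogenes or small RNAs with close copies elsewhere. Rpl17-ps5, a processed copy of the ribosomal protein gene Rpl17 (chr5:22612628-22613182, inside 6030443J06Rik), was at 18.7, 22.8 and 24.9 CPM in controls and 4.64, 11.4 and 3.86 CPM after nPM. Its log2 fold change was -1.62 (SE 0.380) and -1.74 without RIN, and the groups were separate. The difference was -1.44 in lane 1 and -2.54 in lane 3, where V22 and V21 were the only XY blood libraries. Without V7 the fitted log2 fold change reached -2.54 with an adjusted p of 0.00255 (edgeR). Without V8, V22 or V5 it was at -1.46, -1.43 and -1.44, and the gene was not called. The parent gene Rpl17 showed no such pattern, with 31.6 to 34.0 CPM in controls and 23.6 to 45.1 CPM after nPM. Another copy, Rpl17-ps10, had a log2 fold change of -0.00. The copies Rpl17-ps8 and Rpl17-ps9 passed an adjusted p of 0.05 (edgeR) beside Rpl17-ps5 where 1 count in any library was enough. That fit had 83 such genes. Whether reads were shared between these copies was not tested. Gm2541, a processed pseudogene inside Cyyr1 on chromosome 16, was at 2.29 to 3.29 CPM in controls and 0.830 to 1.57 CPM after nPM (log2 fold change -1.53, SE 0.360), and was not called without V7 or V8.

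Rn7s2 encodes 7SL RNA, the RNA scaffold of the signal recognition particle (chr12:69361182-69361481). It was at 7951, 6482 and 13920 CPM in the controls and 4388, 4161 and 4248 CPM after nPM, and its log2 fold change was -1.25 (SE 0.322). Without V22, the highest control, it was -0.60 and not called. The annotated transcripts of Rn7s2 and of its copy Rn7s1 (chr12:69159295-69159594) are 300 bases each and identical at all 300, so reads cannot be assigned to one of them. Rn7s1 was at 17590, 8850 and 9994 CPM in controls and 8120, 5434 and 11340 CPM after nPM. When both were summed, 7SL was at 25550, 15330 and 23910 CPM in the controls and 12510, 9595 and 15580 CPM after nPM, with 1 pair of libraries out of order. The summed log2 fold change was -0.71 (SE 0.326) and no longer passed the cutoff (unadjusted edgeR p of 0.0524). Of the 8 tested small structured RNAs of this class all 8 were lower (median -0.31). Without V7, 5 were higher and 3 lower (median 0.08), and within lane 3 the median difference was 0.21. These include Gm26461, with 198, 193 and 122 CPM in controls against 49.0, 89.4 and 102.5 CPM after nPM.

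The other 5 genes called lower were Plac8, Nmi, Trim34a, Ifit2 and Ifi209, and the last 4 are known as interferon-inducible. Ifit2, an RNA-binding antiviral protein, was at 2.91, 3.82 and 3.91 CPM in the controls and 1.60, 2.07 and 1.98 CPM after nPM. All nPM libraries were below all controls, and the log2 fold change was -1.07 (SE 0.302) with RIN and -0.92 (SE 0.271) without. The call was lost when any of the 6 libraries was left out, with log2 fold changes between -1.27 and -0.96. Nmi, a partner of STAT proteins, was at 0.902, 2.29 and 1.71 CPM in controls and 0.898, 0.726 and 0.992 CPM after nPM. Here V6 fell within the nPM range, as it did in Trim34a, a TRIM protein, and Ifi209, a nucleic acid sensor of the PYHIN family. In Ifi209 the control V8 (5.43 CPM) did so too, with nPM libraries at 2.75 to 5.48 CPM. The log2 fold changes of Nmi, Trim34a and Ifi209 were -1.42, -1.36 and -1.04 with RIN. They were -0.90, -0.75 and -0.50 without it, and none of these genes was then called. Plac8, a cysteine-rich protein of myeloid and lymphoid cells, was at 5.97, 10.9 and 12.9 CPM in controls and 6.59, 4.77 and 11.3 CPM after nPM. Its log2 fold change was -1.08 with RIN and -0.40 without.

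Most interferon-stimulated genes were lower after nPM. Of the 34 tested members of 49, 32 had negative and 2 positive log2 fold changes, with a median of -0.67, against 52.5% positive and a median of 0.02 over all genes tested. Only Ifit2 was called. The list rested on V22: this control held the highest of the 6 levels in 32 of the 34 genes, against 13.4% of all genes tested. In the heat map of the interferon list, the V22 column is the red one. Irf7, the regulator of type I interferon genes, was at 191 CPM in V22 and at 33.2 to 59.6 CPM in the other 5 libraries. Oasl2, an OAS-like protein, was at 222 CPM in V22 and at 9.71 to 31.7 CPM elsewhere. Gbp2, a guanylate-binding protein induced by interferon gamma, was at 8.32 CPM in V22 and at 0.549 to 1.57 CPM elsewhere. Igtp, an interferon-gamma-induced GTPase, was at 15.4 CPM in V22 and 3.94 to 6.12 CPM elsewhere. Rsad2 (viperin), by far the most abundant member, was at 2296, 2694 and 3429 CPM in controls and 2186, 2911 and 1940 CPM after nPM.

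Without V22, the median of the interferon list was 0.01, with 19 genes higher and 15 lower. Within lane 1, where V22 is absent, the median difference was 0.08, and within lane 3, where V22 is the only control, it was -0.90. Ifit2 was at -0.99 without V22, and its difference was -0.73 in lane 1 and -0.83 in lane 3. Nmi, Trim34a and Ifi209, which were not on the list, were at -1.51, -1.25 and -0.75 without V22, and none of them was then called. Their differences in lane 1 were -0.60, -0.52 and -0.43. In XX blood the list had a median of 0.14, with 20 genes higher and 14 lower.

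**Figure D3:**
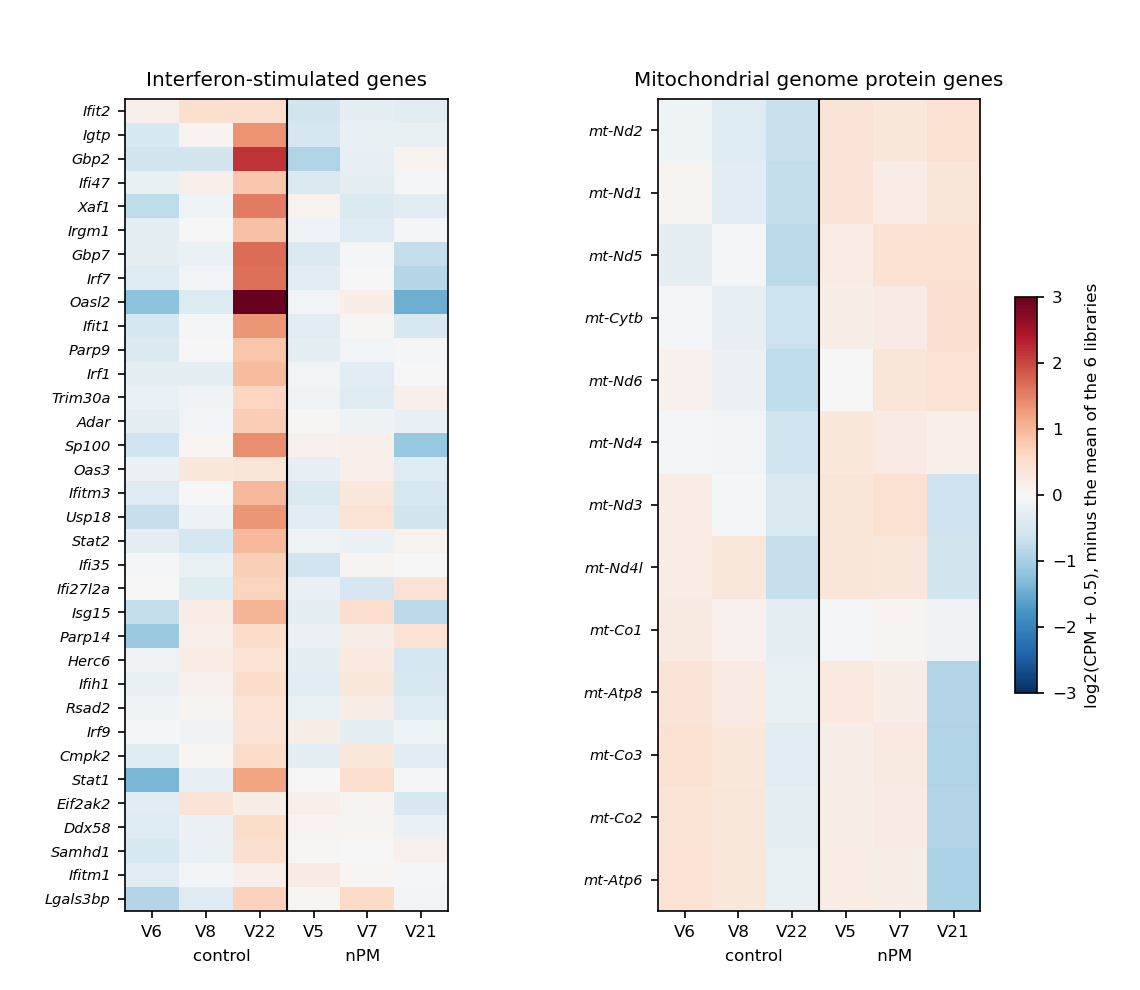
Heat maps of log2(CPM + 0.5) minus the mean of the 6 libraries for the 34 tested interferon-stimulated genes (left) and the 13 protein genes of the mitochondrial genome (right), ordered by p, with controls left of the line and nPM right of it. V22 is the highest library in 32 of the 34 interferon genes. Ifit2, in the top row, is lower in all 3 nPM libraries. On the right, mt-Nd2, mt-Nd1, mt-Nd5, mt-Cytb and mt-Nd4 are higher in all 3 nPM libraries than in any control, and the other 8 rows overlap.

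To show the promoters behind these genes, 250 bases before the annotated start were taken from RefSeq (GRCm38.p6) for the 3 interferon-stimulated genes with the smallest p and for B2m, the light chain of MHC class I, which was also high in V22. A pair of motifs was searched on both strands, GAAANNGAAA, a core of the interferon-stimulated response element, and TTCNNNGAA, the palindrome bound by STAT dimers. Capitals mark the matches. Each sequence is read 5′ to 3′ up to the base before the start, all on the plus strand, from chr19:34550444-34550693 (Ifit2), chr11:58199306-58199555 (Igtp), chr3:142620413-142620662 (Gbp2) and chr2:122147437-122147686 (B2m).
Ifit2: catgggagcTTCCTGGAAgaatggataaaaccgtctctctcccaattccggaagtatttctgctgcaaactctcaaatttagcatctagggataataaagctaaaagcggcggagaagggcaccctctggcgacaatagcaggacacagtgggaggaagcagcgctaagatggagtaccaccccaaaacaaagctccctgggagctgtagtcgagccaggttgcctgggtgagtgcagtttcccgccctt
Igtp: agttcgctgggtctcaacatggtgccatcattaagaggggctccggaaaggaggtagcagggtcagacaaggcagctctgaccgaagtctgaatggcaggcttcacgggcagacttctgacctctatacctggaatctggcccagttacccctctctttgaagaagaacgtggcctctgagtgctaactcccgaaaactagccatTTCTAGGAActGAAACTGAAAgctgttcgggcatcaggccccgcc
Gbp2: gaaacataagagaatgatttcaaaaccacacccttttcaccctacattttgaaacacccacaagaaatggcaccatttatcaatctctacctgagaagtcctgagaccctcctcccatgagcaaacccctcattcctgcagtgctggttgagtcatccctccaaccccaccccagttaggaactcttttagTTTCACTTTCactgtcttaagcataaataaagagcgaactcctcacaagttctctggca
B2m: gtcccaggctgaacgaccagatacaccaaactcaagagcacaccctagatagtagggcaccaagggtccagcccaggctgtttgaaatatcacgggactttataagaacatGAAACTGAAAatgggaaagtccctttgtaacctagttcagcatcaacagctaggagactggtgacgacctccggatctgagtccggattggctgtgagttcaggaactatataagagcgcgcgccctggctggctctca
Igtp held both motifs near its start, Gbp2 and B2m held the first alone, on the minus strand in Gbp2, and Ifit2 held only the second, 232 bases before the start. A second annotated start of Ifit2 had neither. GAAANNGAAA was found in 10 of the 29 tested interferon-stimulated genes with a promoter in the table and in 3.46% of all 27025 genes of the table. TTCNNNGAA was found in 6 of the 29 and in 8.13% of all genes. The 10 genes with GAAANNGAAA were Gbp2, Gbp7, Ifit1, Igtp, Irgm1, Isg15, Oas3, Rsad2, Stat2 and Trim30a. Neither Nmi, Trim34a nor Ifi209 held either motif in this window. A match describes letters and not a bound site.

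Genes of antigen presentation and lymphocytes were also lower on balance, with no gene called. For the MHC list, 16 of 21 tested genes were lower (median -0.41, -0.15 without RIN). B2m was at 144 CPM in V22 and 31.3 to 34.6 CPM in the other 5 libraries, and H2-D1, a classical class I heavy chain, was at 61.6 CPM in V22 and 17.4 to 22.6 CPM elsewhere. Without V22 the median was -0.01. H2-Ab1, a class II chain of B cells and dendritic cells, had a log2 fold change of -0.84 with RIN and -0.30 without. Of 17 tested T and NK cell genes 14 were lower (median -0.43, -0.18 without RIN). Gzma, the granzyme of killer cells, was at 0.763, 0.841 and 3.73 CPM in controls and 0.549, 0.674 and 0.522 CPM after nPM. Its log2 fold change of -2.15 (SE 0.651) missed the cutoff and was -0.41 without V22. Cd247, the CD3 zeta chain, was lower in every nPM library (0.992 to 1.25 CPM) than in any control (1.48 to 2.91 CPM), with a log2 fold change of -0.97. Such separation held in 2 of the 17 T and NK cell genes, 11.8% of the list against 4.96% of all genes tested. Of 17 B cell genes 14 were lower with RIN (median -0.27) and 6 without it (median 0.05). Pax5, the B cell identity factor, was at 2.43 to 4.003 CPM in controls and 2.13 to 3.24 CPM after nPM. V7 was the lowest library in the T and NK list and in the B cell list by its median, and without V7 the medians were -0.08 and 0.13. In XX blood the lists were lower too, with all 17 T and NK cell genes (median -1.02), 16 of 17 B cell genes (-0.77) and 16 of 21 MHC genes (-0.55).

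Red cell genes made up most of the RNA, and their list medians with RIN lay between -0.10 and -0.03. The 7 tested globins had a median of -0.03 (-0.22 without RIN). With RIN 3 were higher and 4 lower, and without RIN all 7 were lower. Hbb-bs and Hbb-bt, the adult beta globins, were at 396810 ± 74132 and 141760 ± 50146 CPM in controls and at 339660 ± 28694 and 99290 ± 13390 CPM after nPM (SD, n = 3 each). Before TMM scaling, globins took 76.8, 73.4 and 71.3% of counts in controls V6, V8 and V22. They took 71.2, 71.0 and 73.9% in nPM libraries V5, V7 and V21, so the groups overlapped. Of 29 genes of the red cell membrane and surface 23 were lower (median -0.10). In 3 of them every nPM library was below every control, 10.3% of the list against 4.96% of all genes tested. Tmod1, the cap of spectrin-linked actin, was at 70.4 to 93.9 CPM in controls and 49.3 to 68.8 CPM after nPM. Epb41 (protein 4.1), the most abundant of the list, was at 9732 ± 955 CPM and 10408 ± 1483 CPM. For heme synthesis 12 of 20 genes were lower (median -0.09), 18 of 20 without RIN, and 7 of 20 without V8 (median 0.11). Among them was Alas2, its rate-limiting enzyme in red cells, at 22761 ± 2972 CPM and 21686 ± 3646 CPM. Of 24 erythroid regulators 17 were lower (median -0.05). Lmo2, a bridging protein of erythroid transcription complexes, was lower in each nPM library (105.6 to 116 CPM) than in each control (139 to 154 CPM), with a log2 fold change of -0.42 (SE 0.206). Tfdp2 and Klf1, factors of late red cell maturation, also had separate groups and log2 fold changes of -0.32 and -0.69. In 4 of the 24 regulators every nPM library was below every control, and in 1 above. These were 16.7% and 4.17% of the list, against 4.96% and 5.56% of all genes tested. None of these was called. In XX blood 28 of the 29 membrane and surface genes were higher (median 0.44), and 19 of the 20 heme synthesis genes (0.49). There 5 of the 7 globins (0.13) and 13 of the 24 erythroid regulators (0.15) were higher.

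Platelet genes were lower by small steps. Of 28 tested members 24 were lower and 4 higher, the median was -0.21 (-0.19 without RIN), and in 8 every nPM library was below every control, 28.6% of the list against 4.96% of all genes tested. P2ry12, the ADP receptor of platelets, was at 11.9, 13.9 and 15.7 CPM in the controls and 10.98, 8.87 and 11.1 CPM after nPM (log2 fold change -0.62, SE 0.216). F2rl2, a thrombin receptor, was at 5.00 to 6.88 CPM and 3.29 to 4.38 CPM. Plek (pleckstrin) was at 86.1 to 106 CPM and 72.3 to 85.2 CPM, and Rgs18, Cd9, Tubb1, Nrgn and Gng11 also had separate groups. The most abundant member, Thbs1, was at 136 ± 21.7 CPM and 148 ± 34.9 CPM. Sparc was the only member called, in the other direction. Leaving out any 1 library kept the median between -0.33 and -0.15. In XX blood 25 of the 28 were higher, with a median of 0.53. Cd226, a receptor of platelets and killer cells counted in another list, was at 22.4 to 29.1 CPM in controls and 15.1 to 20.1 CPM after nPM.

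Neutrophil granule genes were higher with RIN in 20 of 22 cases (median 0.46) and without RIN in 21 of 22 (median 0.20), with none called. Lcn2 (lipocalin 2) was at 6.31, 2.14 and 3.73 CPM in controls and 4.39, 5.76 and 3.60 CPM after nPM. S100a8, a calgranulin, was at 41.4, 17.97 and 22.4 CPM and 31.1, 28.9 and 31.7 CPM. Camp (cathelicidin) was at 5.13 ± 1.65 CPM and 5.91 ± 1.29 CPM. In each of them V8 was the lowest library, and without V8 the median was 0.21. Lyz2, the most abundant, was at 63.4 ± 5.48 CPM and 68.2 ± 12.7 CPM. In XX blood 17 of the 22 were lower, with a median of -0.39. For monocytes and macrophages 8 of 13 genes were lower (median -0.06; 0.21 without RIN), led by Ly6c2 (5.04 CPM in V22, 1.04 to 2.01 CPM elsewhere). For blood stem and progenitor cells 5 of 7 were lower (median -0.00).

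The median of cytosolic ribosomal protein genes had opposite signs with and without the RIN term. With RIN 66 of 79 were higher (median 0.16), and without it 53 of 79 were lower (median -0.05). V7 held the highest level in 59 of the 79, against 16% of all genes tested. Without V7, 62 of the 79 were lower with RIN (median -0.16). Rpl36 was at 11.8 ± 3.34 CPM in controls and 12.9 ± 3.36 CPM after nPM. Processed pseudogenes had 58 of 112 higher (median 0.02). Mitosis genes had 25 of 45 higher with RIN and 38 of 45 lower without it. V6 held the highest level in 31 of the 45, against 21% of all genes tested. Of 22 DNA replication genes 14 were lower (median -0.03). Pcna, the replication clamp, was at 3.69 to 4.82 CPM in controls and 2.54 to 3.34 CPM after nPM. Uhrf1, which couples replication to DNA methylation, was at 5.71 to 7.98 CPM and 4.87 to 5.06 CPM. Both had separate groups and neither was called. In 3 of the 22 every nPM library was below every control, 13.6% of the list against 4.96% of all genes tested. Of 36 replication-dependent histones 23 were lower (median -0.07). In 4 of them every nPM library was below every control, 11.1% of the list against 4.96% of all genes tested. V22 was the highest library in 16 of the 36. Without V22 14 were lower (median 0.13), and without V8 32 were (median -0.44). These libraries were not selected for poly(A) tails, which most of these histone mRNAs lack. Hist1h2ab was at 1.04 to 1.22 CPM in controls and 0.519 to 0.939 CPM after nPM.

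Medians of the pathways for which inhaled particles are best known lay on either side of 0, and several changed sign when 1 library was left out. NRF2 targets and glutathione genes had 18 of 29 lower (median -0.06), and 9 of 29 without V8 (median 0.22). Among them Pgd, an enzyme of the pentose phosphate pathway, was at 2.37 to 3.68 CPM in controls and 3.86 to 4.51 CPM after nPM, and Prdx2, the peroxiredoxin of red cells, at 1103 to 1433 CPM and 837 to 1053 CPM. Both had separate groups and neither was called. In 1 of the 29 every nPM library was above every control, and in 2 below. These were 3.45% and 6.9% of the list, against 5.56% and 4.96% of all genes tested. Aryl hydrocarbon receptor genes had 6 of 10 higher (median 0.02), p53 targets 8 of 13 higher (0.08, and -0.23 without V7), the G2/M DNA damage checkpoint 19 of 29 higher (0.07), p38 MAPK signalling 18 of 29 higher (0.04), and TLR4 and NF-kB signalling 9 of 17 higher (0.01). Traf6, a ubiquitin ligase of Toll-like and interleukin-1 receptor signalling, had the smallest p in the last 2 lists. It was at 1.18, 2.06 and 1.89 CPM in controls and 1.15, 0.674 and 1.04 CPM after nPM (log2 fold change -1.25, SE 0.361), and just missed the cutoff. Metal handling genes had 8 of 11 higher (median 0.27) and genes of the integrated stress response 7 of 21 (median -0.08). Without V7 these medians were 0.04 and -0.39. Ppp1r15b, a regulator of eIF2 dephosphorylation, was at 2.84 to 3.36 CPM in controls and 4.36 to 6.09 CPM after nPM. Of 40 proteasome genes 23 were lower (median -0.06). Psme1, an interferon-inducible activator subunit, was at 6.11, 6.35 and 10.9 CPM in controls and 5.84, 4.51 and 5.79 CPM after nPM.

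**Figure D4:**
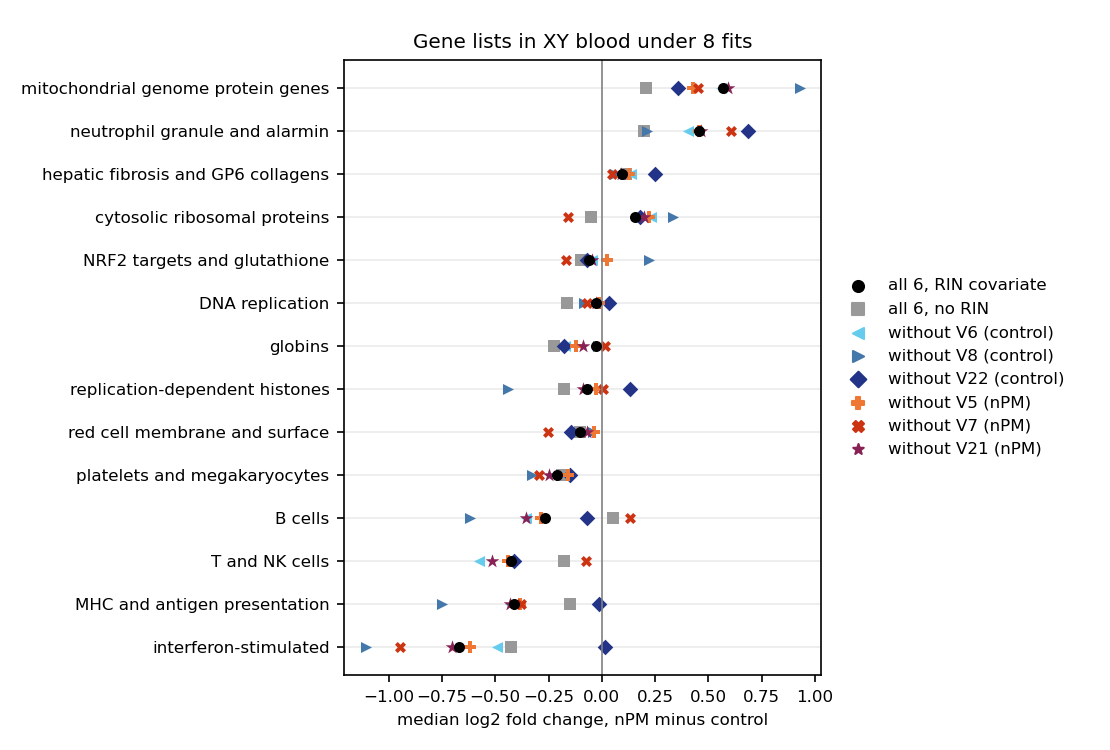
Median log2 fold change (nPM minus control) of 14 gene lists in XY blood under 8 fits: all 6 libraries with the RIN covariate (black), without it (grey), and with each library left out (colours). The interferon-stimulated median lies at 0.01 without V22 and at or below -0.42 in the other fits, platelet medians stay below 0, and those of B cells and ribosomal proteins lie on both sides of 0.

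The remaining classes rested on few genes. Of cortex neuron and glia genes 7 were tested, 4 of them higher, with a median of 0.38 that was -0.23 without V5. In V5, Mbp, a myelin gene, was at 23.4 CPM, against 6.33 to 9.23 CPM in the other 5 libraries. Spliceosomal RNAs had 4 of 5 higher (median 0.51), small nucleolar RNAs 4 of 8 (0.05), microRNA loci 5 of 8 (0.18), lincRNAs 17 of 30 (0.04) and loci marked to be experimentally tested 4 of 9 (-0.17). Endothelial genes had 2 of 3 higher (0.03) and genes of dendritic and killer cell cross-talk 1 of 4 (-0.23). Single genes were tested of the skeletal muscle list (Tpm2, 0.09) and of the eosinophil, basophil and mast cell list (Hdc, 0.40), and none of the liver list.

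Of 15 genes that the study's text names for blood, 4 passed the filter here and none was called. The text mostly names them for XX pups, for both sexes together or as upstream regulators, so XY values are not the same comparison. Rgl2, a Ral exchange factor, was at 0.833, 0.994 and 1.26 CPM in controls and 2.20, 1.24 and 1.77 CPM after nPM. Its log2 fold change was 0.45 (SE 0.399) with RIN and 0.73 without. Suds3, a subunit of the Sin3 deacetylase complex, was at 49.7 ± 4.51 CPM and 44.3 ± 2.31 CPM (log2 fold change -0.09). Hist2h2ac and the small nuclear RNA Gm23444 were at -0.39 and 0.05. Wfdc6b had no count in any of the 6 libraries, Gm37534 had 0 to 9 counts and Id3 had 4 to 17. App had 198 counts in V5 and 7 to 74 in the others, beside the cortex transcripts of V5.

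Whether XY pups differed from XX pups was asked with the exposure-by-sex term, fitted on 11 blood libraries. It had an unadjusted p under 0.005 in 58 genes, 1% of those tested, and an adjusted p under 0.05 in none (0%, edgeR's quasi-likelihood test, smallest adjusted p = 0.167). An unadjusted p under 0.05 was found in 702 of the 5789 genes. That count was 435 without RIN, 416 without V3 and 1144 without V18. DESeq2 called 3 at the adjusted cutoff, Gm25395, Gm23444 and Gm2541. Of the 17 genes called in XY blood, 5 had the same direction in XX blood, against 46.7% of all genes tested. All 9 genes called higher in XY blood were lower in XX blood, and 5 of the 8 called lower were lower in XX blood too. The term passed 0.005 in 6 of the 17: Pxn, Gm42418, mt-Nd2, Eif4g3, Gm2541 and Rpl17-ps5. These 17 were selected in the XY libraries that also enter the term, so these counts do not show that the sexes differ.

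Rpl17-ps5 had the largest contrast among the called genes. In XX blood it was at 5.08 and 10.2 CPM in the 2 controls and at 6.67, 33.5 and 13.6 CPM after nPM, so that XX controls lay in the range of XY nPM libraries. Its XX log2 fold change was 1.39 (SE 0.391) and the difference XY minus XX was -3.34 (SE 0.650). Rn7s2 as counted went the same way in both sexes, with an XX log2 fold change of -1.36 (SE 0.385). Its reads cannot be told from those of Rn7s1, and the summed 7SL counts were not fitted in XX blood. Pxn was at 2.48 and 2.65 CPM in XX controls and 1.007 to 2.04 CPM in XX nPM libraries. Of the 6 genes with the smallest p of the term, 3 in each direction, Rpl17-ps5 and Gm2541 were called in XY blood and the other 4 were not. Gm23444 was at 3.42 to 10.02 CPM in the 6 XY libraries, and at 14.8 and 13.9 CPM in XX controls against 2.43 to 3.16 CPM in XX nPM libraries. The scaRNA Gm25395 was at 5.35 to 7.25 CPM in XY blood, and at 11.3 and 7.68 CPM in XX controls against 2.74 to 3.16 CPM after nPM. Ston2 was at 2.70 to 3.37 CPM in XY blood, and at 1.32 and 1.56 CPM in XX controls against 2.54 to 4.03 CPM. Uty is Y-linked and was at 0 to 0.339 CPM in XX blood, so its term does not compare responses.

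**Figure D5:**
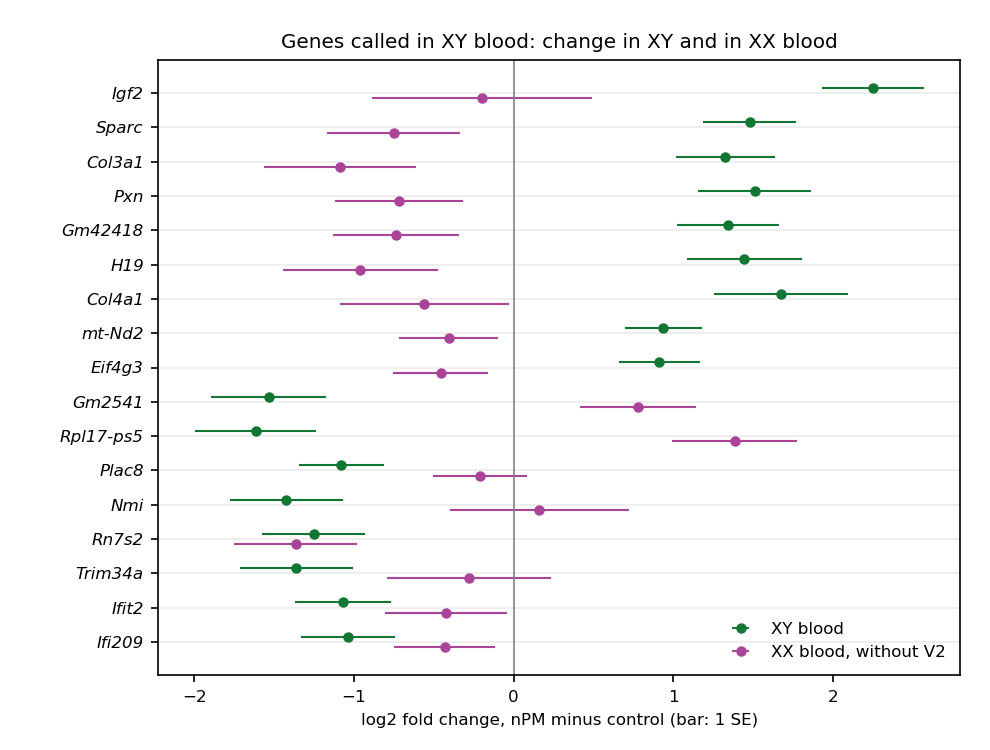
Log2 fold change, nPM minus control, with 1 SE, of the 17 genes called in XY blood, in XY blood (green, 3 against 3 libraries) and in XX blood (purple, 3 nPM against 2 control libraries). The 9 genes at the top lie right of 0 in XY blood and left of 0 in XX blood. Rn7s2, whose reads cannot be told from those of Rn7s1, is at -1.25 and -1.36.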

How the data were processed

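Whole blood of neonatal mice was sequenced as ribosome-depleted RNA (RiboZero Gold). The authors trimmed the reads (Trimmomatic), aligned them with HISAT2 to mm10 (GRCm38), and used featureCounts 1.5.0-p3 to count per gene of Gencode M11. The deposited table holds raw counts. The strand setting and the treatment of reads with several positions are not given in the sources used here. The authors' mean RPKM per gene, deposited with the gene coordinates, was not used.

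Genes with at least 10 counts in all 6 XY blood libraries were fitted with exposure and RIN (edgeR 4.0.16 quasi-likelihood test, two-sided, TMM, R 4.3.3). CPM are TMM-normalized, lane differences used log2(CPM + 0.5), and fold changes are from the fit. Calls used the study's cutoffs, 0.05 for the adjusted p or else 0.005 unadjusted. The exposure-by-sex term was fitted on 11 blood libraries with RIN. V2, an XX control, was left out, since the study excluded 1 blood sample with a distinct count distribution that it does not name, and V2 stood apart (50.1% globin counts). XX values were fitted without V2 too. Alternatives used limma 3.58.1 voom and DESeq2 1.42.0. No 2 of the 6 libraries were copies (smallest chi-square per gene 33.4, where sampling alone gives about 1). Scripts were tested on simulated data.

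The comparison and 43 gene lists were chosen with earlier results of these data known. Genes named are the 12 with the smallest p in each direction, those the study's text names for blood, up to 3 of the smallest p and the most abundant in each list, 3 of the exposure-by-sex term in each direction, and cortex markers. Others, such as members whose groups did not overlap, were chosen after their values were seen. Counts of 0 bound a level only below 3 counts per library (0.148 to 0.221 CPM). Some genes that this rule names are not reported here.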

Additional observations from a re-analysis of the deposited data

How the results depend on the processing

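The 17 genes at an unadjusted p under 0.005 (9 higher, 8 lower) became 35 of 10602 (18 higher, 17 lower) when at least 1 count in every library was required, 212 of 20822 (153 and 59) with 1 count in any library, and 28 (20 and 8) without RIN. Leaving out 1 library gave 12 to 41 (41 without V8, 34 without V7). RLE scaling, limma voom, DESeq2, edgeR's filterByExpr, RIN with lane, lane alone, globins removed and both sexes in the fit gave 13 to 23. The 0 genes at an adjusted p of 0.05 became 1 in DESeq2 (Igf2) and 83 with 1 count in any library, and 0 to 1 with a library left out. For exposure by sex, 58 genes (42 higher, 16 lower) became 99 (41 and 58), 322 (143 and 179) and 33 (lane alone), and 13 to 189 with a library left out: 13 without V4, 135 without V17, 189 without V18, 161 without V7, 27 without V5, 36 without V6 or V8 and 33 without V3. Adjusted calls there went from 0 to 3 in DESeq2, 82 with 1 count in any library and 0 to 1 with a library left out. Where an XX control was left out, the lone control was assumed to vary like the other groups. The log2 fold change of Gm23444 (0.05) was -0.0043 with 1 count in every library, -0.0028 with RIN and lane, and -0.49 to 0.80 with a library left out. That of Suds3 (-0.09) was -0.13 to 0.047 with a library left out, the highest without V7. The summed 7SL counts were chosen after seeing the data. The cause of these shifts was not tested. Of the other values for named genes, 353 kept direction and side of the cutoff, 102 no longer passed it and 16 newly passed. Of the medians of gene lists, 484 stayed within the spread between libraries and 101, in 35 lists, moved beyond it. No paired analysis was possible because the labels give no replicate numbers.

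With 3 libraries per group and 3616231 to 5807914 counts outside globins, genes near 10 counts had the least precise values, and a difference that missed the cutoff does not show equal levels.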
